A study of Mus musculus with 6 samples.

Results

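The Hox cluster genes are the homeobox genes that sit side by side in 4 clusters, named a to d, on chromosomes 6, 11, 15 and 2 of the mouse. They were taken as every annotated gene whose symbol is Hox followed by a cluster letter and a paralog number, which gave 39 of the 55359 annotated genes in the tables. RNA was sequenced from whole brain of mouse embryos at E18.5, shortly before birth. PME-1 is the methylesterase that acts on protein phosphatase 2A, and S156A replaces a serine of the protein by alanine. The groups were PME-1 WT and PME-1 S156A, with 3 libraries each, and each library came from total RNA of 3 brains combined in a tube. The labels give no strain, sex or zygosity, so the spread between libraries is a spread between pools, and that between single embryos was not measured.

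Hox genes encode homeodomain transcription factors that set position along the head-to-tail axis. Genes with the same number in different clusters are paralogs, and low-numbered genes lie at the end of each cluster that is expressed first and furthest towards the head. In the nervous system they are known from the hindbrain and spinal cord, where they specify segments and classes of motor neurons, and the forebrain is known to lack them. They bind DNA together with TALE homeodomain cofactors (Pbx, Meis and Pknox proteins), and Polycomb complexes keep them silent outside their domain.

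Promoter windows of RefSeq (GRCm38.p6), each the 250 bases upstream of an annotated start, were held for 22 of the 39 Hox genes and for 10 of the 17 with enough RNA to be tested. The 4 shown are those of Hoxa5 and Hoxd4, whose levels did not overlap between the genotypes, and of Hoxa2 and Hoxb8, whose levels did. They are written 5′ to 3′ on the gene's own strand. Capitals mark, on either strand, CCAAT (the CCAAT box), TATAAA (the TATA box) and TGATNNAT (a paired Hox and Pbx word), and in Hoxa5 also a 12-base word shared with Hoxc4.
Hoxa5, chr6:52204588-52204837, minus strand: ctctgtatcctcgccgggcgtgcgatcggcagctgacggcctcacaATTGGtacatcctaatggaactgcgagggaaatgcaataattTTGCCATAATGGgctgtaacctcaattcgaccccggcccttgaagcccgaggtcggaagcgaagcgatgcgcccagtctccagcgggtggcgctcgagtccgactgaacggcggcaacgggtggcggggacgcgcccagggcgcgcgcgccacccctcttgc
Hoxd4, chr2:74721728-74721977, plus strand: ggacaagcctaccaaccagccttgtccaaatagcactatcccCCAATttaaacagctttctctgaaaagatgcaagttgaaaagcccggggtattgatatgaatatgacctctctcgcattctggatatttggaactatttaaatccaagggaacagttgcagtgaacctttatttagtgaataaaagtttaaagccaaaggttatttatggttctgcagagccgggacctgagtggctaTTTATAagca
Hoxb8, chr11:96281655-96281904, plus strand: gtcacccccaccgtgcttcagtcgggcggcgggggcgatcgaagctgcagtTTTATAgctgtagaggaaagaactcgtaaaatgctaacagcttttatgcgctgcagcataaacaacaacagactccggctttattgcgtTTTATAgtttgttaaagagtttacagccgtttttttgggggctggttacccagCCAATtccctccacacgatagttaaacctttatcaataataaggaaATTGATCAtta
Hoxa2, chr6:52164832-52165081, minus strand: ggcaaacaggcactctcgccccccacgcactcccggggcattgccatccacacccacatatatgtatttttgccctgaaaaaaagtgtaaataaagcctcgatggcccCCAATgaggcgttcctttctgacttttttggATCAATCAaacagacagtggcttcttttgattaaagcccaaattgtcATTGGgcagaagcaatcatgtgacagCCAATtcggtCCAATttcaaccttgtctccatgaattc
In the GENCODE annotation of that build no exon reached into these windows. The Hoxa5 window lay in introns of longer Hoxa3 and Gm28308 transcripts and of the antisense Hoxaas3, the Hoxd4 window in introns of longer Hoxd3 and Hoxd4 transcripts and the Hoxa2 window in an intron of Gm28308.

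CCAAT was in 7 of the 10 windows of tested Hox genes and in 33.8% of 32851 windows of all genes. TATAAA was in 2 of 10 (Hoxb8 and Hoxd4) against 12.4%, and TGATNNAT in 2 of 10 (Hoxa2 and Hoxb8) against 7.68%. The homeodomain core TAATTA was in 0 of 10 against 4.84%, and GGTTCA, a retinoic acid receptor half-site, in 1 of 10 (Hoxd4) against 8.85%. GGGCGG, the GC box, was in 3 of 10 against 32.7%. The longest words shared by 2 of the 10 windows had 12 bases. One of them, found after the sequences were seen, was in the Hoxa5 and Hoxc4 windows and in 2 of all 32851, so in no other, and is shown in capitals with its surroundings.
Hoxa5, 162 bases before the start: ataattTTGCCATAATGGgctgta
Hoxc4, 122 bases before the start: acacgaTTGCCATAATGGagacca
Hoxb4 and Hoxc4 shared another 12-base word that was in 25 windows. A match of letters is a description of the sequence and not evidence of a bound site.

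Levels are TPM, the abundance of a gene's transcripts scaled for length and for the library. Estimated depth ran from 3.16 to 4.14 aligned gigabases per library, and 18191 to 19270 annotated genes reached 1 TPM. WT replicate 3 and S156A replicate 1 stood apart from the other 4 libraries by RNA of skeletal muscle and connective tissue. The muscle actin gene Acta1 had TPM values of 8.22, 333 and 2472 in WT, in replicate order, against 2611, 17.7 and 18.7 in S156A. The summed level of 14 muscle markers was 17.4, 1034 and 8520 TPM in WT against 9013, 75.7 and 64.6 TPM in S156A, with no marker at 0 throughout. WT replicate 2 thus also held muscle RNA, at a level between the others. Results for the Hox genes are therefore given with and without these 2 libraries.

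Of the 39 Hox genes, 17 had a mean of at least 1 TPM over the 6 libraries and were tested, and 9 were at 0 in all 6. The tested genes carried paralog numbers 2 to 8. Hoxc5 passed this filter through its WT level, since its S156A mean was 0.999 TPM. Hoxd8, with an S156A mean of 0.904 TPM, passed it through WT replicate 3 (4.23 TPM) and S156A replicate 1 (2.37 TPM). In WT the highest was Hoxa5 (39.3 ± 6.89 TPM, SD, n = 3), followed by Hoxb5 (27.3 ± 1.83 TPM) and Hoxb8 (14.1 ± 0.954 TPM). The ranges of Hoxa5, Hoxb5 and Hoxb8 did not overlap in WT. From Hoxb8 down to Hoxd8, at 1.47 ± 2.39 TPM, each gene's range overlapped that of the next one in the order.

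**Figure D1:**
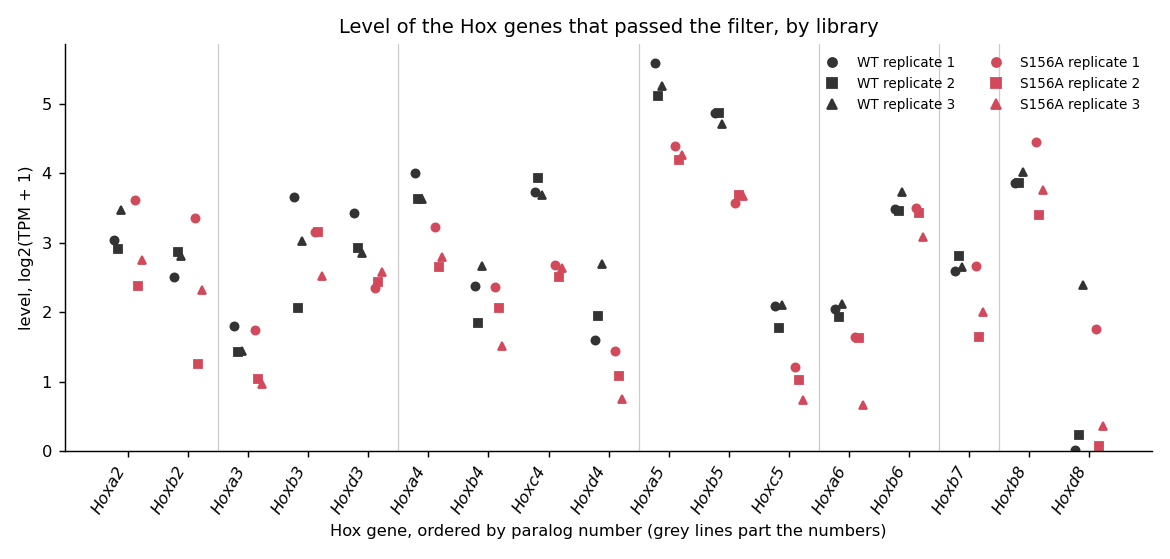
Level of each of the 17 tested Hox genes in each library, as log2(TPM + 1), with the genes ordered by paralog number and parted by grey lines. Black symbols are WT and red symbols S156A, and the shape gives the replicate. Hoxd3, Hoxa4, Hoxc4, Hoxd4, Hoxa5, Hoxb5, Hoxc5 and Hoxa6 have all red symbols below all black ones.

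The first question was how each Hox gene differed between S156A and WT. Only Hoxb5 fell past the threshold, a limma adjusted p under 0.05, and no Hox gene rose past it. Over all 18893 genes 0.0741% were called lower and 0.0847% higher. Of the 17 tested Hox genes, 7 were lower at an unadjusted limma p under 0.05, against 5.5% of all genes, and 0 were higher, against 8.41%. In 8 of the 17 every S156A library lay below every WT library, against 7.05% of all genes, and in 0 every S156A library lay above, against 13.7%. In sign alone 16 of 17 were lower, against 38.3%. Among the 15 genes with a mean of at least 1 TPM in both genotypes, so without Hoxc5 and Hoxd8, 6 were lower at that p and 7 did not overlap. Scaling by a trimmed mean turned the balance over all genes at an unadjusted limma p under 0.05 from 1039 lower and 1589 higher to 1368 lower and 1105 higher, and quantile normalization to 1342 and 1068. All-gene calls then went from 14 lower and 16 higher to 23 and 14, and to 36 and 16. The median difference of the 17 genes was -0.58 on the log2(TPM + 1) scale, and that of all tested genes 0.09. Without the filter, 30 Hox genes could be fitted and their median was -0.21. The log2(TPM + 1) scale understates the change of genes with low TPM. In a whole brain, fewer cells that express a gene and less RNA per cell cannot be told apart.

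The paralog group 5 is known for its part in the posterior hindbrain and cervical cord, including the motor neurons of the diaphragm. Hoxb5 (ENSMUSG00000038700.5, chromosome 11, 96194162 to 96196947, plus strand in the files' coordinates) had a TPM of 28.3, 28.4 and 25.2 in WT, again in replicate order. Its TPM in S156A was 10.9, 11.8 and 11.8. All S156A libraries lay under all WT libraries, and the libraries within a genotype were close to each other. Mean TPM was 27.3 ± 1.83 for WT against 11.5 ± 0.552 for S156A (SD, n = 3 each). S156A minus WT was -1.18 in log2 (SE 0.13, limma adjusted p = 0.0452). Leaving out WT replicate 1 or 2 moved the limma adjusted p to 0.198 or 0.251, and leaving out S156A replicate 1, 2 or 3 moved it to 0.103, 0.178 or 0.197. Without WT replicate 3 it was 0.045, and 35 of all genes were called lower and 35 higher. Without any other library at most 1 of all genes was called in each direction. The difference itself stayed between -1.23 and -1.14 when each library was left out.

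Hoxa5 (ENSMUSG00000038253.7, chromosome 6, 52178734 to 52181567, minus strand), the most abundant Hox gene, had a TPM of 47.0, 33.7 and 37.3 in WT. In S156A its TPM was 20.1, 17.2 and 18.3. The groups did not overlap, and the lowest WT library was above the highest S156A library by more than the range within S156A. The log2 difference was -1.04 (SE 0.16, limma adjusted p = 0.0688). Hoxc5 (ENSMUSG00000022485.4, chromosome 15, 102875878 to 102925861, plus strand) was much lower, with a TPM of 3.26, 2.40 and 3.30 in WT against 1.31, 1.03 and 0.659 in S156A. Its groups did not overlap either, and its log2 difference was -1.0 (SE 0.27, limma adjusted p = 0.20). Neither gene passed the adjusted threshold. The Hoxc5 gene model also spans Hoxc6, Hoxc8, Hoxc9 and Hoxc10 on its strand, all under 1 TPM on average in each genotype.

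The paralog group 4 is known for forward borders inside the posterior hindbrain, and Hoxb4 and Hoxd4 are known to respond to retinoic acid there. Hoxc4 (ENSMUSG00000075394.5, chromosome 15, 102927366 to 102945278, plus strand) had a TPM of 12.3, 14.3 and 11.9 in WT against 5.39, 4.66 and 5.21 in S156A. Its groups were far apart for their spread, and S156A minus WT was -1.18 in log2 (SE 0.18, limma adjusted p = 0.0662). Hoxa4 (ENSMUSG00000000942.11, chromosome 6, 52166651 to 52168733, minus strand) had a TPM of 15.0, 11.4 and 11.3 in WT against 8.39, 5.30 and 5.95 in S156A. These did not overlap, and the log2 difference was -0.86 (SE 0.22, limma adjusted p = 0.194).

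Hoxd4 (ENSMUSG00000101174.9, chromosome 2, 74542273 to 74559504, plus strand) had a TPM of 2.01, 2.86 and 5.44 in WT. Its S156A values were 1.73, 1.11 and 0.673. The groups did not overlap, but WT replicate 1 and S156A replicate 1 came close to each other. The log2 difference was -0.99 (SE 0.36, limma adjusted p = 0.309). Hoxb4 (ENSMUSG00000038692.9, chromosome 11, 96209093 to 96212464, plus strand) was the 1 gene of paralog numbers 4 and 5 whose groups overlapped. It had a TPM of 4.21, 2.59 and 5.35 in WT against 4.14, 3.17 and 1.87 in S156A. Its log2 difference was -0.32 (SE 0.33, limma adjusted p = 0.712).

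**Figure D2:**
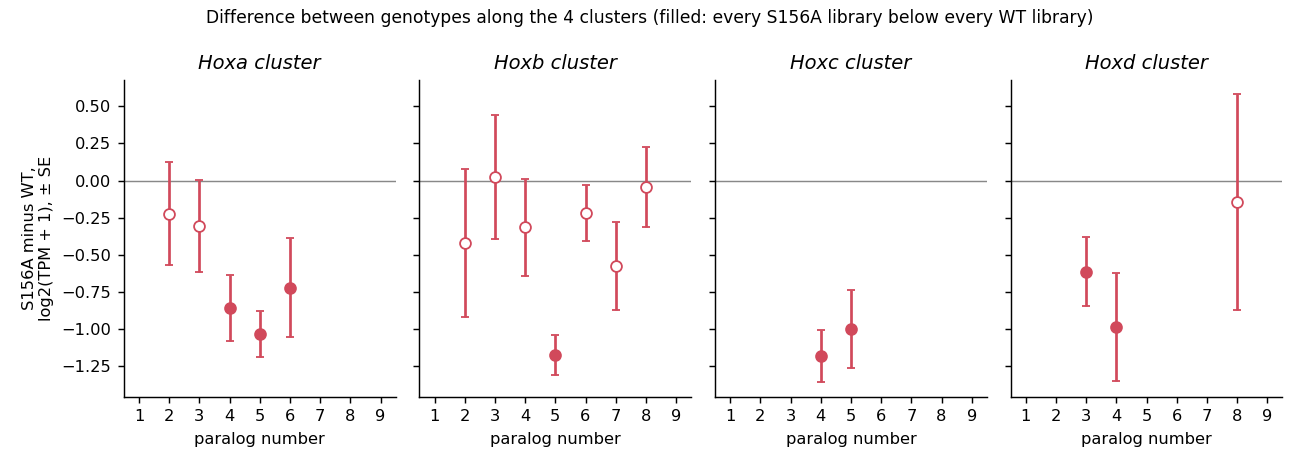
Difference between S156A and WT on the log2(TPM + 1) scale (limma estimate ± SE) for each tested Hox gene, by cluster and paralog number. Filled points are genes in which every S156A library was below every WT library, and the lowest point is Hoxa5, Hoxb5, Hoxc4 and Hoxd4 in clusters a to d; cluster c had no tested gene with another number.

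Among paralog numbers 1 to 3, Hoxb1 and Hoxd1 were too low to test. Hoxb1, known for the facial motor segment of the hindbrain, was at 0 in all 6 libraries. Hoxd1 reached at most 1.24 TPM, in WT replicate 3. Hoxd3, with a TPM of 9.79, 6.56 and 6.25 in WT against 4.11, 4.39 and 4.98 in S156A, had groups that did not overlap. Its log2 difference was -0.62 (SE 0.23, limma adjusted p = 0.317). Hoxb2, which acts with Hoxb1 in facial motor neurons, had a TPM of 4.68, 6.32 and 6.0 in WT against 9.25, 1.38 and 3.98 in S156A. S156A replicate 1 was the highest of the 6, and S156A replicates 2 and 3 lay below every WT library (log2 difference -0.42, SE 0.50).

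Hoxa2, the Hox gene expressed furthest forward in the hindbrain, was at 7.94 ± 1.92 TPM in WT against 7.07 ± 3.72 TPM in S156A (SD, n = 3 each). Hoxa3 was at 1.96 ± 0.45 TPM and 1.45 ± 0.778 TPM, and Hoxb3 at 7.32 ± 4.24 TPM and 6.84 ± 1.84 TPM, in the same order. The groups overlapped in all 3 genes, with log2 differences of -0.22 (SE 0.35), -0.31 (SE 0.31) and 0.03 (SE 0.42). Hoxb3 was the 1 tested Hox gene with a positive difference, and its sign turned negative under scaling by a trimmed mean (-0.04) and quantile normalization (-0.08).

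Paralog numbers 6 to 8 are known from the cervical and brachial cord. Hoxa6 had a TPM of 3.13, 2.82 and 3.33 in WT against 2.13, 2.09 and 0.576 in S156A. Its groups did not overlap, and S156A minus WT was -0.72 in log2 (SE 0.33, limma adjusted p = 0.39). Hoxb7 had a TPM of 5.06, 5.98 and 5.26 in WT against 5.35, 2.13 and 3.02 in S156A. S156A replicate 1 lay among the WT libraries, and the other 2 S156A libraries lay below them (log2 difference -0.58, SE 0.30). Hoxb6 was at 10.8 ± 1.24 TPM in WT against 9.18 ± 1.48 TPM in S156A, with overlapping groups (log2 difference -0.22, SE 0.19).

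Hoxb8, known in mice for its part in grooming behaviour, had a TPM of 13.5, 13.6 and 15.2 in WT against 20.9, 9.54 and 12.6 in S156A. S156A replicate 1 was the highest and the other S156A libraries the lowest (log2 difference -0.04, SE 0.27). Hoxd8 had a TPM of 0.0125, 0.171 and 4.23 in WT against 2.37, 0.0556 and 0.283 in S156A. It was therefore above 1 TPM only in WT replicate 3 and S156A replicate 1. Hoxc6, a gene of the forelimb motor columns, reached 1.62 TPM in WT replicate 3 and 1.84 TPM in S156A replicate 1, and Hoxa7 reached 1.95 TPM in WT replicate 3. Hoxc8 stayed at or under 0.215 TPM.

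The 16 genes with paralog numbers 9 to 13, known from the thoracic cord to the tail and from the limbs, did not pass the filter, and 8 of them were at 0 in all 6 libraries. Hoxb9 was the highest, at 1.40 TPM in WT replicate 3 and 0.757 TPM in S156A replicate 1. Hoxd9 reached 0.593 TPM and Hoxc13 0.237 TPM, both in WT replicate 3. Hoxa9, Hoxc10, Hoxd10, Hoxb13 and Hoxd13 stayed at or under 0.123 TPM. Hoxc9, Hoxa10, Hoxa11, Hoxc11, Hoxd11, Hoxc12, Hoxd12 and Hoxa13 were listed at 0 throughout.

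The next comparison was by paralog number. The blocks were chosen with earlier results of these data known, so the contrast between them is a description and not a test. All 7 genes with numbers 4 and 5 were tested, and in 6 of them the groups did not overlap. The median log2 difference of the 7 was -1.0. Hoxc5, which passed the filter through its WT level, is among them, and without it 5 of 6 did not overlap. Of the 10 tested genes with other numbers, 2 (Hoxd3 and Hoxa6) had groups that did not overlap, and the median of the 10 was -0.27. At an unadjusted limma p under 0.05, 6 of the 7 and 1 of the 10 were lower, against 5.5% of all genes. The contrast in overlap was not there without WT replicate 3 and S156A replicate 1. Both S156A libraries then lay below both WT libraries in 17.8% of all genes. They did so in 6 of 7 genes with numbers 4 and 5 and in 8 of 9 with other numbers. At that p, 5 of the 7 and 1 of the 9 were then lower, against 6.28% of all genes. The medians were then -1.09 and -0.61. The summed level of paralog numbers 4 and 5 was 112, 95.6 and 99.8 TPM in the WT libraries against 51.9, 44.3 and 44.5 TPM in the S156A libraries. The groups did not overlap, the S156A sums lay close together, and the ratio of the means was 0.457. The summed level of paralog numbers 1 to 3 was 31.5 ± 5.84 TPM in WT against 25.5 ± 9.74 TPM in S156A, a ratio of 0.81. That of paralog numbers 6 to 8 was 36.5 ± 6.5 TPM in WT against 30.9 ± 10.9 TPM in S156A, a ratio of 0.846 (SD, n = 3 each). In both of these blocks the groups overlapped. Paralog numbers 9 to 13 added at most 2.39 TPM, in WT replicate 3.

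As a share of all Hox TPM, paralog numbers 4 and 5 made up 62.1%, 61.9% and 55.6% in WT and 39%, 50.6% and 49.0% in S156A. The shares did not overlap, and S156A replicate 1 had the lowest. These sums weigh Hoxa5 and Hoxb5 most, and sums over members were not tested. Without WT replicate 3 and S156A replicate 1 the log2 ratio of the block sums was -1.23 for numbers 4 and 5, -0.62 for numbers 1 to 3 and -0.41 for numbers 6 to 8. With all libraries these were -1.13, -0.30 and -0.24.

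**Figure D3:**
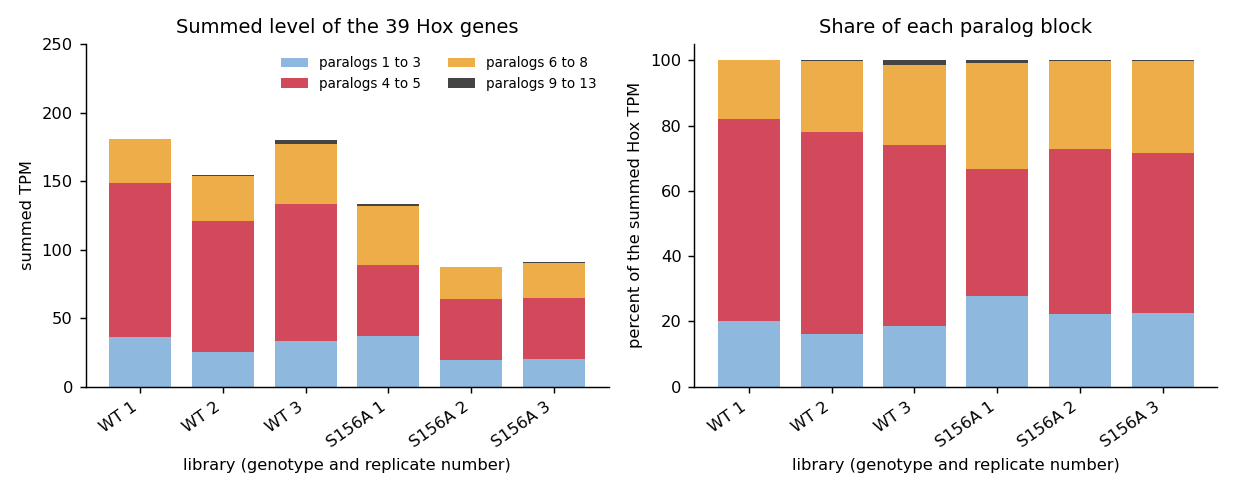
Left, summed TPM of the 39 Hox genes in each library, stacked by paralog block; right, the same as a percent of the library's Hox TPM. Bars start at 0, and the block of paralog numbers 4 and 5 takes between 55.6% and 62.1% in WT and between 39% and 50.6% in S156A.

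By cluster, the summed level was lower in S156A in all 4. It was 66.5 ± 9.05 TPM in WT against 36.2 ± 8.48 TPM in S156A for cluster a, a ratio of 0.544. For cluster b it was 75.2 ± 4.4 and 53.5 ± 13.7 TPM, a ratio of 0.712. For cluster c, in which Hoxc4 and Hoxc5 gave most of the RNA, it was 16.6 ± 0.79 and 7.15 ± 1.58 TPM, a ratio of 0.431. For cluster d it was 13.3 ± 4.04 and 6.93 ± 1.75 TPM, a ratio of 0.521. The groups did not overlap in any cluster, although in cluster b the lowest WT sum (70.1 TPM) was close to the highest S156A sum (69.4 TPM). Cluster b, which holds Hoxb6, Hoxb7 and Hoxb8, held a larger share of all Hox TPM in S156A, with no overlap between the groups. This share was 43.9 ± 1.31% in WT and 51.5 ± 1.17% in S156A (SD, n = 3 each). The whole set summed to 181, 154 and 180 TPM in WT against 133, 87.6 and 90.7 TPM in S156A. The highest S156A sum was that of replicate 1, and the groups did not overlap.

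Neighbouring genes of a cluster were then compared within each library, since a ratio of 2 genes does not depend on the scaling of the library. In 2 of 13 pairs of adjacent tested genes the S156A ratios were all above the WT ratios, and in 0 all below. Hoxb6 to Hoxb5 was 0.359, 0.353 and 0.486 in WT and 0.944, 0.827 and 0.634 in S156A. Hoxb6 was thus nearer to the level of Hoxb5 in every S156A library than in any WT library. Hoxb8 to Hoxb7 was 2.67, 2.27 and 2.88 in WT and 3.90, 4.48 and 4.17 in S156A. For each pair the exact two-sided permutation p was 0.1, the smallest that 3 against 3 libraries allow, and 0.65 after Benjamini-Hochberg adjustment over the 13 pairs. Hoxa5 to Hoxa4, both lower in S156A, kept ratios of 3.13 ± 0.174 in WT and 2.90 ± 0.449 in S156A (SD, n = 3 each), with overlapping groups. Hoxc5 to Hoxc4 likewise overlapped, at 0.236 ± 0.0595 and 0.197 ± 0.0617.

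**Figure D4:**
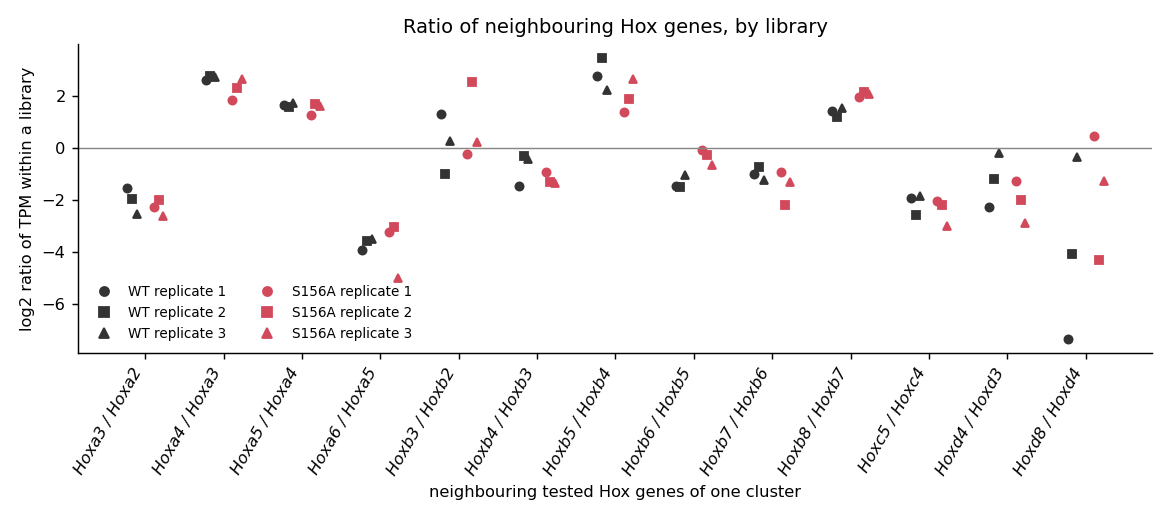
Ratio of TPM between adjacent tested Hox genes of a cluster in each library, on a log2 axis; black symbols are WT, red symbols S156A, and the shape gives the replicate. Only Hoxb6 to Hoxb5 and Hoxb8 to Hoxb7 have all red symbols above all black ones, and no pair has them all below.

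Several Hox genes overlap the annotated span of a neighbour. Overlap was taken from the start and end of each gene, and exons were not compared. Of the 17 tested genes, 8 overlapped another annotated gene on the same strand, 7 of them a gene with at least 1 TPM in a genotype, and 11 overlapped a gene on the opposite strand. The long gene model of Hoxa3 covers Hoxa4, Hoxa5 and Hoxa6, and Gm28308 covers Hoxa2 to Hoxa6. Hoxd3 and Hoxd4 overlap each other and Gm28230. Where exons also overlap, reads may be split between genes, so the values of Hoxa2 to Hoxa6, Hoxc5, Hoxd3 and Hoxd4 are less certain. Hoxb5 and Hoxc4 were among the 9 tested genes with no overlap on their strand. Hoxb5 overlaps the antisense Hoxb5os, at a mean of 0.369 TPM in WT against 0.57 TPM in S156A, and the sources used here do not say whether the counting used strand.

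The 2 libraries with the most muscle RNA also held more of many Hox genes. Of the 26 Hox genes above 0 in both genotypes, 15 (57.7%) were highest in WT replicate 3 within WT and in S156A replicate 1 within S156A, against 19.8% of all tested genes. Among them were 7 of the 9 that were too low to test, such as Hoxd1, Hoxc6 and Hoxb9, and 8 of the 17 that were tested. Hoxb5 and Hoxc4 were not among these 15. The part of this tissue in the Hox levels was not tested. Without the 2 libraries 16 Hox genes were tested, and in 14 both S156A libraries lay below both WT libraries, against 17.8% of all 18543 genes then tested. At an unadjusted limma p under 0.05, 6 of 16 were lower, against 6.28% of all genes. None was called, with a smallest limma adjusted p of 0.0771, for Hoxb5, and of all genes 2 were called lower and 4 higher. The median difference of the 16 Hox genes was then -0.85.

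Left out together, the 2 libraries changed single genes unevenly. Hoxb5 kept a log2 difference of -1.19 (SE 0.16), Hoxc4 -1.27 (SE 0.22), Hoxa5 -1.12 (SE 0.20) and Hoxa4 -1.09 (SE 0.24). Hoxb7 moved from -0.58 to -0.87 (SE 0.29) and Hoxb2 from -0.42 to -0.91 (SE 0.43). Hoxb3 and Hoxb4 were the 2 genes whose groups still overlapped, at -0.02 (SE 0.56) and -0.32 (SE 0.36).

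The genes of proteins that act with Hox proteins or on their loci were compared as lists. Counts in them stand beside 5.5% of all genes lower and 8.41% higher at an unadjusted limma p under 0.05. The 9 TALE cofactor genes were all tested, 0 differed at that threshold in either direction, and their median was 0.11. Pbx3 had a log2 difference of -0.28 (SE 0.17) and Pknox2 of 0.37 (SE 0.21). Of 22 Polycomb genes 4 were higher at that threshold (Eed, Phc2, Bmi1 and Ring1, by 0.37 to 0.48) and 0 lower, with a median of 0.19. Of 17 Trithorax and activating chromatin genes 2 were higher, the demethylase gene Kdm6a (0.59) and the methyltransferase gene Kmt2c (0.36), and 0 lower, a share near that of all genes. None of these passed the adjusted threshold. Of 8 tested upstream patterning genes, Gbx2, which acts in the anterior hindbrain, was lower at that threshold (-0.73, SE 0.20, limma adjusted p = 0.201).

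Of 16 non-coding transcripts of the clusters found in the tables, 3 were tested and 0 passed a threshold. Hotairm1, a transcript of cluster a, had a TPM of 6.73, 8.08 and 13.2 in WT against 11.4, 1.46 and 6.37 in S156A. Its highest libraries in each genotype were the 2 with the most muscle RNA, and the groups overlapped. Hoxb3os and Haglr had log2 differences of 0.52 (SE 0.42) and -0.32 (SE 0.29). Hotair and the 3 genes of miR-196 were listed at 0 throughout.

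Genes listed as markers of brainstem, spinal and motor neurons were compared in the same fit. Whether they are limited to regions that express Hox genes was not tested. Of 20 tested markers of brainstem and spinal neurons, 7 were lower at an unadjusted limma p under 0.05, against 5.5% of all genes, and 0 higher, and the median was -0.27. Of these 7, 2 passed the filter through their WT level, and among the 18 markers with a mean of at least 1 TPM in both genotypes 5 were lower and the median was -0.13. Slc6a5, the neuronal glycine transporter, fell by 1.68 on the log2 scale (SE 0.20, limma adjusted p = 0.0461), from 11.1, 9.34 and 10.1 TPM in WT to 2.74, 2.61 and 2.1 TPM in S156A. Mab21l2 (-0.64) and the inhibitory vesicular transporter gene Slc32a1 (-0.64) had groups that did not overlap and did not pass the adjusted threshold. The summed level of the 21 listed markers ran from 278 to 299.9 TPM in WT and from 195 to 243 TPM in S156A. This sum weighs Slc32a1 most, at a mean of 105.6 TPM in WT against 67.5 TPM in S156A. In sign alone 13 of the 20 tested markers were lower and 7 higher. Of 6 tested motor neuron markers 2 were lower at that threshold, against 5.5% of all genes, Slc18a3 (-0.82) and Chat (-0.67), and Mnx1 was at or near 0 in every library.

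At the other end of the axis, 8 of 14 forebrain markers were higher at that threshold, against 8.41% of all genes, and 0 lower. Their median was 0.48 against 0.09 for all genes, with Lhx6 (0.70), Fezf2 (0.55), Dlx5 (0.40) and Tbr1 (0.62) having the smallest p. Their summed level ran from 633 to 779 TPM in WT and from 821 to 1266 TPM in S156A. Of 8 tested choroid plexus markers 5 were higher, against the same 8.41%, and 0 lower, with Ttr at 1028 to 1471 TPM in WT and 2177 to 3335 TPM in S156A. The 14 muscle and 14 connective tissue markers had 0 at that threshold in either direction. Their highest members were Acta1, given above, and Col1a1, at 53.0, 216 and 934 TPM in WT against 1318, 140 and 148 TPM in S156A. Of 9 midbrain and anterior hindbrain markers and 6 sensory ganglion markers, Pou4f1, which is on both lists, was lower (-0.88, SE 0.22). Among 7 tested Schwann cell markers Sox10 (0.59), also made by oligodendrocyte lineage cells, was higher, and of 5 erythroid markers Alas2 (0.86) was higher, with Hbb-bs the most abundant. The part of these shifts in the Hox differences was not tested.

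**Figure D5:**
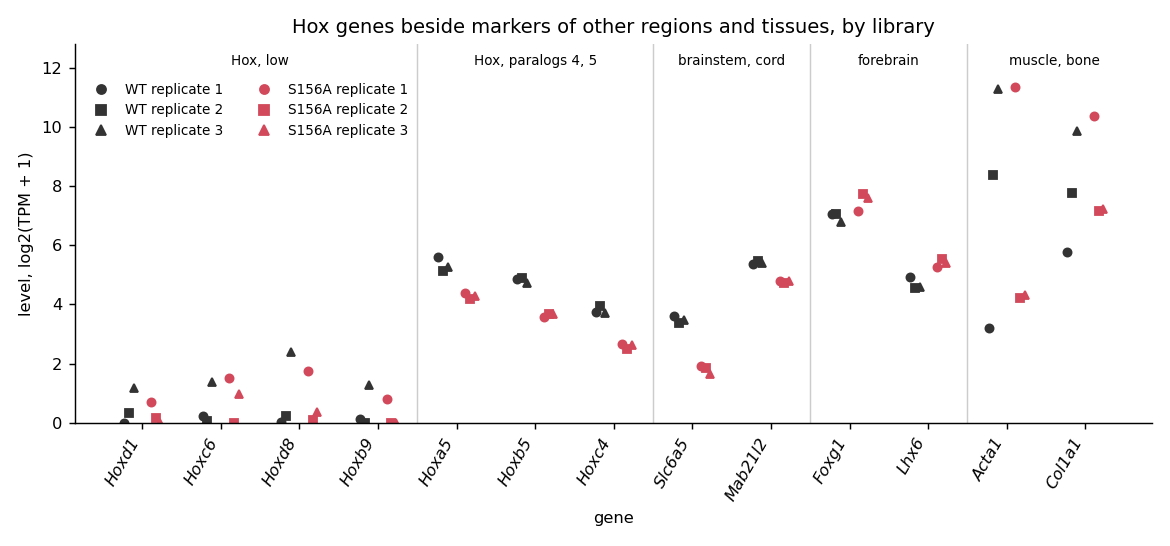
Level of 4 low Hox genes, 3 Hox genes with paralog number 4 or 5, and markers of brainstem and cord, forebrain, muscle and bone in each library, as log2(TPM + 1); black symbols are WT, red symbols S156A, and the shape gives the replicate. Hoxa5, Hoxb5, Hoxc4, Slc6a5 and Mab21l2 have all S156A libraries below all WT libraries, while Acta1 and Col1a1 are highest in WT replicate 3 and S156A replicate 1.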

How the data were processed

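RNA of whole brain at E18.5 was measured in 3 WT and 3 S156A libraries, each a pool of 3 brains, made, per the labels' protocols, with a directional kit. Groups and replicate numbers came from the sample titles. The deposited FPKM and TPM values (both scaled for gene length and library) and coverage values (mean read depth per base, not normalized) are StringTie gene tables, per the file headers. The reads passed through Trim Galore (0.6.6), HISAT2 (2.2.1) and, for the tables, StringTie (2.1.5), per the submitters' processing notes. These notes also name the human build hg38, although the rows carry mouse identifiers, so coordinates are given as the files have them, and the RefSeq sequences (GRCm38.p6) were matched by symbol only. The sources used here do not give the strand setting, the annotation or any filter. The tables hold no read counts, so depth is an estimate from coverage and FPKM, and no counting intervals are given.

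Only annotated rows were used, rows that share a gene identifier were summed, and assembled rows were left out. log2(TPM + 1) was fitted with limma 3.58.1 in R 4.3.3 (eBayes with trend, two-sided, no covariate) for the 18893 genes with a mean of at least 1 TPM, with Benjamini-Hochberg adjustment over all of them. Sums, counts and ratios were computed in Python 3.11.15 with pandas 2.3.3 and SciPy 1.17.1. On simulated data for this comparison, with 18893 genes, limma called 0, 13, 35 and 45 of 50 genes whose log2 difference was set to 0.5, 1, 2 and 3. The members, paralog blocks and lists were chosen with earlier results of these data known. Values per library are given by rule for all genes with paralog numbers 4 and 5, for called genes and for the tested gene with the smallest p per paralog number, and those of Hoxb8 and Mnx1 were added after they were seen. From other lists up to 4 genes with the smallest p and, for other tissues, the most abundant one are named. Some genes that the rules name are not reported here. Libraries with the same replicate number did not deviate together (correlations of -0.55, 0.19 and -0.41), so the numbers were not taken to pair samples. Alternatives were FPKM, pseudocounts of 0.1 and 5, no filter, a mean of at least 5 TPM, scaling by a trimmed mean, by quantiles or after leaving out ribosomal RNA, haemoglobin and mitochondrial genes, robust eBayes or none of the trend, weights per library, a replicate block, and libraries left out.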

Additional observations from a re-analysis of the deposited data

How the results depend on the processing

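Hoxb5 was the single Hox gene called. The count of called Hox genes was 0 without a filter, with eBayes without trend, with the replicate block and with WT replicate 3 and S156A replicate 1 both left out, 2 under quantile normalization (with Hoxa5) and 3 with library weights (with Hoxa5 and Hoxc4). Over all genes, calls rose too, from 14 lower and 16 higher to 36 and 16 under quantile normalization and to 182 and 127 with library weights. They fell to 0 and 0 without a filter and with the replicate block, to 9 and 7 without trend and to 2 and 4 without both libraries. The Hox count ran from 0 to 1 when each library was left out. Calls over all genes were then 35 lower and 35 higher without WT replicate 3, and at most 1 in each direction without any other library. The limma adjusted p of Hoxb5 was 0.134 without a filter, 0.0605 without trend, 0.288 with the replicate block and 0.0771 without both libraries. Hox genes lower at an unadjusted p under 0.05 numbered 4 of 10 at a mean of at least 5 TPM, 5 with the replicate block and 5 to 8 with a library left out. Over all genes the same count was 855 of 13686, 818 of 18893 and 645 to 1242, in that order. Hox genes with every S156A library below every WT library numbered 5 of 12 with FPKM, against 1410 of all 15286 genes. At a mean of at least 5 TPM they numbered 5 of 10, against 1051 of 13686. With both libraries left out they numbered 14 of 16, against 3305 of 18543. With a single one left out they ran from 8 to 14, against 1648 to 2596 of all genes. The 14 came without S156A replicate 1, against 2001 of 18757. Fewer libraries make this easier to meet, and with all 6 it held for 1332 of 18893 genes. The median of the Hox genes was -0.33 with FPKM, -0.71 and -0.30 with pseudocounts of 0.1 and 5, and -0.21 without a filter. It was -0.85 without both libraries and -0.87 to -0.36 with a single one left out. Hoxb3 turned negative with FPKM (-0.018), a pseudocount of 5 (-0.010), a trimmed mean (-0.035), quantile normalization (-0.079) and both libraries left out (-0.025), and ran from -0.40 to 0.40 with a single one left out. Hoxd8 turned positive with a pseudocount of 0.1 (0.053) and with library weights (0.087). It ran from -0.58 to 0.18 over the 4 fits with a library left out in which it was tested. Without WT replicate 3 or without S156A replicate 1 it did not pass the filter. Hoxa2 ran from -0.58 to 0.045, Hoxb2 from -0.95 to 0.11 and Hoxb8 from -0.33 to 0.20, all turning positive without S156A replicate 2, and Hoxb8 also without WT replicate 3 or S156A replicate 3. The summed level of paralog numbers 9 to 13 had a log2 ratio of -1.15, and of -2.54 to 0.69 with a library left out, turning positive without WT replicate 3. The cause was not tested. Hoxc5 passed the filter through its WT level, and Hoxd8 through WT replicate 3 and S156A replicate 1. A mean of at least 1 TPM in both genotypes, chosen after seeing the data, left 15 genes, 1 called, 6 lower and 7 without overlap. Depth is an estimate, and genes with a mean under 1 TPM were not tested with the filter in place.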

Other observations

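The tables also hold assembled loci that match no annotated gene, and these were in no comparison above. A minus-strand locus inside the Hoxc4 gene, on chromosome 15 from 102935399 to 102936893 in WT replicate 3 and with similar bounds elsewhere, had a TPM of 2.81, 2.74 and 2.74 in WT, in replicate order, against 1.73 in S156A replicate 3. S156A replicates 1 and 2 had no row for it. An assembled row can be missing because the locus was not assembled, so no level is given there. Its strand is opposite to that of Hoxc4.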
